A study of Mus musculus with 20 samples.

Results

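Melanocyte genes were counted in RNA of the thoracic aorta of C57BL/6J mice, a black strain. The 6 genes are Dct, Tyrp1, Tyr, Pmel, Mlana and Mitf, chosen by name as pigment cell genes out of 54532 genes in the count table, and each matched 1 gene identifier. The RNA was from ascending aorta or from descending thoracic aorta, taken from mice given β-aminopropionitrile (BAPN), an inhibitor of the lysyl oxidases that cross-link elastin and collagen, or water alone for 1 week. The 4 groups were ascending BAPN, ascending water, descending BAPN and descending water, with 5 libraries each, all of the same strain with no engineered allele named in the labels. The labels give neither the age of the mice nor whether each library came from 1 animal, so a p-value here measures the spread between these libraries.

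Melanocytes arise from the neural crest and make melanin inside melanosomes, organelles related to lysosomes. Tyrosinase, encoded by Tyr, carries out the rate-limiting oxidation of tyrosine, and the enzymes encoded by Dct and Tyrp1 act on later intermediates of the black pigment eumelanin. Pmel forms the fibrils on which melanin is laid down, Mlana is a melanosome membrane protein that binds Pmel, and Mitf is the transcription factor that drives the other genes in melanocytes. Mitf is also used by mast cells, osteoclasts, macrophages and heart muscle, so its transcript alone does not mark a pigment cell. In mice with dark coats, melanocytes are known outside the skin, among other places in the heart valves.

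Library totals ran from 15744725 to 23292294 counts. The smooth muscle genes Acta2, Myh11, Cnn1 and Tagln were counted in every library, with 48.7 CPM (counts per 1000000 counts, scaled by TMM) of Tagln as the lowest value. The levels of 33 pseudogenes parted the libraries into sets that are not named in the labels. The set called here that of higher pseudogene levels held ascending BAPN 1 to 5, ascending water 4 and 5, and descending water 1, 2 and 5. The set called that of lower levels held the rest. These names are labels for the sides of the first principal component of the pseudogenes, and levels by set are not given here. Under BAPN these sets coincide with the regions, so no comparison within a set was possible there.

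On GRCm38, with GENCODE M21 annotation, Dct (ENSMUSG00000022129) lies on chr14:118012790-118052244, minus strand, and Tyr (ENSMUSG00000004651) on chr7:87424771-87493512, minus strand. Tyrp1 (ENSMUSG00000005994) lies on chr4:80834123-80851719 and Mitf (ENSMUSG00000035158) on chr6:97807052-98021349, both on the plus strand. Pmel (ENSMUSG00000025359) lies on chr10:128704195-128720238 and Mlana (ENSMUSG00000024806) on chr19:29697824-29708634, both also on the plus strand. The exons of Pmel share 105 bases with Dgka and 34 with Cdk2, which lie on the opposite strand. The strand setting of the counting is not given in the sources used here, so reads from those stretches cannot be told apart.

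The promoters of the melanin enzyme genes are shown because Mitf is known to bind the sequence TCATGTG in them, and because these 3 genes were counted in ascending and nearly absent from descending libraries. The windows come from RefSeq on GRCm38.p6, read 5′ to 3′ on the gene's strand, with 250 bases before and 50 bases after the start site. They are chr14:118052197-118052496 for Dct, chr4:80833963-80834262 for Tyrp1 and chr7:87493463-87493762 for Tyr. Capitals mark TCATGTG or its reverse complement CACATGA.
Dct: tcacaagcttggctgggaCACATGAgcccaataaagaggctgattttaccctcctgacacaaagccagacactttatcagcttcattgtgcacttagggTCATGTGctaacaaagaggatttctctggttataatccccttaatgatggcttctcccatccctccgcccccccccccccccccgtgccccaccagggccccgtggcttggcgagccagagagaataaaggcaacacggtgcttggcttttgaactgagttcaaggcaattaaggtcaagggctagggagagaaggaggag
Tyrp1: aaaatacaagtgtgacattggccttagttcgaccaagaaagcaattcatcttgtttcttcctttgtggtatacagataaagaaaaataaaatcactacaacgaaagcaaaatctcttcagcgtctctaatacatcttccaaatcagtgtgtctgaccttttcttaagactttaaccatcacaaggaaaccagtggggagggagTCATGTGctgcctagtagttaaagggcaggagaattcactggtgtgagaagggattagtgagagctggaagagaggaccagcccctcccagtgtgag
Tyr: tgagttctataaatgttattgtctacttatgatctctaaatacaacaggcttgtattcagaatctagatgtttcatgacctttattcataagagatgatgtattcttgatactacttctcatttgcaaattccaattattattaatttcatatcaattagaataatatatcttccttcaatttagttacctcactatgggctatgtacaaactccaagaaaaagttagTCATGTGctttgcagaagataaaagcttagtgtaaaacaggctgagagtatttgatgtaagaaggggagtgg

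In the Tyrp1 window TCATGTG began 47 bases before the start site, and in the Tyr window 22 bases before it. The Dct window held a pair of matches, of which the one on the printed strand began 151 bases before the start site. Both strands were searched, and 3.77% of 32851 mouse promoter windows of this length held the motif. None of the 3 windows of Mitf held TCATGTG, and among 7 other pigment genes with a window it was found in 4, Mc1r, Slc24a5, Trpm1 and Tspan10. A match describes these letters and was not tested as a binding site.

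In the ascending aorta all 6 genes were counted in every library, under BAPN and under water. Dct had 11.2, 13.4, 9.35, 17.2 and 8.71 CPM in ascending BAPN libraries 1 to 5, against 5.43, 4.67, 8.12, 11.0 and 7.32 CPM in ascending water libraries 1 to 5. Its highest library was ascending BAPN 4 and its lowest ascending water 2, and the groups overlapped through BAPN libraries 3 and 5 and water library 4. Tyrp1 had 2.21, 4.83, 3.66, 8.33 and 3.05 CPM in ascending BAPN libraries, against 1.495, 1.17, 2.61, 3.05 and 1.73 CPM in ascending water libraries. Here too BAPN library 4 was the highest and water library 2 the lowest, with BAPN library 1 inside the range of the water group. Tyr, the gene of the rate-limiting enzyme, had 0.972, 1.41, 0.261, 2.65 and 0.871 CPM in ascending BAPN libraries, against 0.598, 0.4999, 0.414, 0.315 and 0.741 CPM in ascending water libraries. BAPN library 3 was below every water library, while the other BAPN libraries were above all of them.

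Pmel, the fibril gene, had 3.73, 4.70, 2.61, 4.03 and 2.12 CPM in ascending BAPN libraries, against 2.39, 1.44, 3.32, 3.10 and 2.62 CPM in ascending water libraries. The groups overlapped, with BAPN libraries 3 and 5 inside the range of the water group and the other BAPN libraries above it. Mlana had 0.810, 0.550, 0.836, 2.15 and 0.809 CPM in ascending BAPN libraries, against 0.997, 0.111, 0.995, 0.735 and 1.14 CPM in ascending water libraries. Apart from the high BAPN library 4 and the low water library 2, its values lay close together. Mitf had 17.8, 19.2, 19.2, 18.9 and 23.9 CPM in ascending BAPN libraries, against 21.0, 18.9, 18.7, 18.5 and 18.1 CPM in ascending water libraries, and these groups lay in the same range except for BAPN library 5 above it and BAPN library 1 just below it.

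In the descending aorta Dct was at 0 counts in all 5 BAPN libraries, and under water it had 4 counts in all, in libraries 4 and 5. For the BAPN group 0 counts allow up to 0.0333 CPM, taking 3 counts over the group as the limit. Tyrp1 was at 0 counts in all 10 descending libraries. Tyr had 2 counts in all in descending BAPN and 1 count in descending water. Such intervals and limits cover counting error only.

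Pmel and Mlana were low but counted in every descending library. Pmel had 0.897, 0.775, 0.586, 0.689 and 0.571 CPM in descending BAPN libraries, against 0.819, 0.370, 0.537, 1.40 and 0.368 CPM in descending water libraries. Every value was below the lowest ascending one, and water library 4 came closest to it. Mlana ranged over 0.0476 to 0.298 CPM in descending BAPN and 0.0537 to 0.322 CPM in descending water, from 12 and 15 counts in all. Mitf had 25.1, 26.3, 28.1, 30.7 and 27.4 CPM in descending BAPN libraries, against 20.8, 22.3, 22.6, 18.5 and 23.3 CPM in descending water libraries. All BAPN libraries were above all water libraries, and Mitf was thus plentiful where Dct and Tyrp1 were at or near 0.

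**Figure D1:**
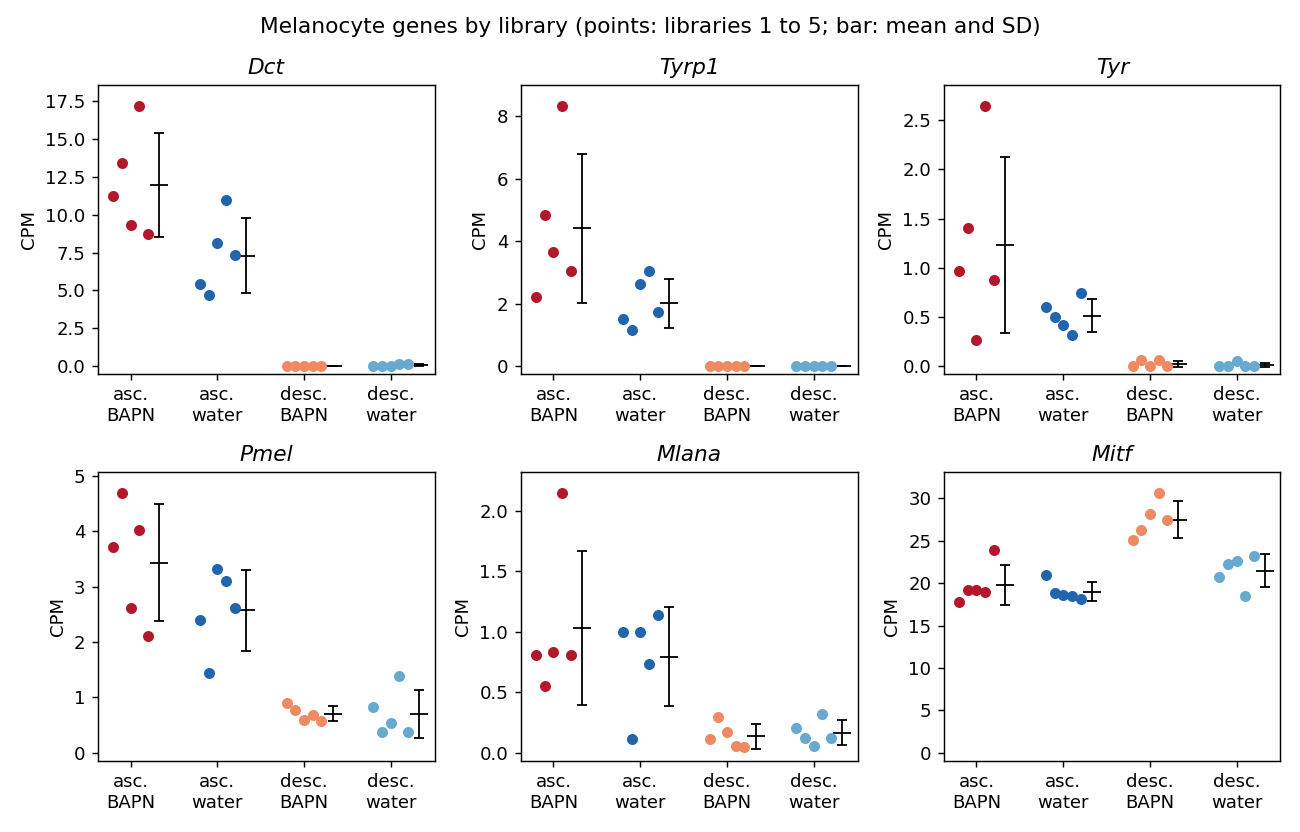
CPM of the 6 melanocyte genes in each library, with libraries 1 to 5 of a group from left to right and the group mean and SD as a bar (n = 5). Dct, Tyrp1 and Tyr lie at or near 0 in both descending groups, whereas Mitf is highest in descending BAPN at 25.1 to 30.7 CPM.

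Per length of exon, Mitf was the most abundant of the 6 genes in ascending BAPN, with 3.2 ± 0.38 CPM per kilobase (SD, n = 5). Dct followed with 2.03 ± 0.586 CPM per kilobase, Tyrp1 with 1.56 ± 0.844, Pmel with 1.499 ± 0.461 and Mlana with 0.976 ± 0.603. Tyr was lowest with 0.173 ± 0.125 CPM per kilobase. The step from Mitf to Dct and that from Mlana to Tyr exceeded the SDs on both sides, and the steps between Dct, Tyrp1, Pmel and Mlana did not. Under water the order was Mitf with 3.07 ± 0.183 CPM per kilobase, Dct with 1.24 ± 0.421, Pmel with 1.12 ± 0.319, Mlana with 0.752 ± 0.387, Tyrp1 with 0.711 ± 0.279 and Tyr with 0.0723 ± 0.0232. Again only the steps below Mitf and above Tyr exceeded the SDs.

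The 5 genes other than Mitf were summed as a level of pigment transcripts. The sum ranged over 15.6 to 34.4 CPM in ascending BAPN and 7.89 to 18.2 CPM in ascending water, so within each group the highest library had 2.21 and 2.31 times the lowest. It ranged over 0.619 to 1.13 CPM in descending BAPN and 0.493 to 1.83 CPM in descending water. Dct supplied 50.1 to 59.3% of these counts in ascending BAPN libraries and 49.8 to 60.4% in ascending water libraries. Tyrp1 counts came to 19.7, 35.9, 39.1, 48.4 and 35.0% of Dct counts in ascending BAPN libraries, against 27.5, 25, 32.1, 27.8 and 23.7% in ascending water libraries. The share was thus both lowest and highest under BAPN. In bulk tissue, fewer cells of a type and less RNA per cell cannot be told apart.

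The melanin enzyme genes, the fibril gene and Mlana were all higher in the ascending than in the descending aorta, whichever treatment the mice had. Mitf, the regulator, was lower in ascending BAPN than in descending BAPN. Differences were tested with edgeR's quasi-likelihood test on all 15543 genes that passed a filter on low counts, and a gene is called when its Benjamini-Hochberg adjusted p is under 0.05. All 6 genes passed the filter, but Dct, Tyrp1, Tyr and Mlana could pass through their ascending libraries alone, so once tested these had to differ between regions, and their calls are a description. The test called 5 genes higher and 1 lower in ascending than in descending BAPN libraries, where 29.8% of all genes were called, 15.6% as higher and 14.2% as lower. It called 5 higher and none lower under water, where 27.3% were called and 15.2% were higher.

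Under BAPN, Dct had 1059 counts in the ascending and 0 in the descending libraries, which is at least 361-fold higher when 3 counts are set over the descending group (edgeR adjusted p = 4.26e-12). Under water it had 746 counts in ascending and 4 in descending libraries, a log2 difference of 7.15 with a standard error (SE) of 0.479 (edgeR adjusted p = 8.8e-11). No ascending library came near a descending one. Tyrp1 was at least 133-fold higher under BAPN, from 390 counts against 0, and at least 60.7-fold higher under water, from 207 against 0 (edgeR adjusted p = 7.55e-08 and 1.64e-06). Tyr had 108 counts against 2 under BAPN, a ratio of 55.2 with a 95% counting interval of 14.9 to 461, and 52 against 1 under water, a ratio of 45.8 with an interval of 7.86 to 1842 (edgeR adjusted p = 1.38e-06 and 0.000124). Few descending counts make these last intervals wide.

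Pmel and Mlana, which kept a measurable level in the descending aorta, differed less. Pmel was higher in the ascending aorta by 2.28 on the log2 scale under BAPN (SE 0.307, edgeR adjusted p = 1.58e-06) and by 1.86 under water (SE 0.309, edgeR adjusted p = 3.41e-05). Mlana was higher by 2.89 under BAPN (SE 0.559, edgeR adjusted p = 0.000218) and by 2.22 under water (SE 0.546, edgeR adjusted p = 0.00267). The ascending and descending Mlana values overlapped under water through ascending water 2, and an exact two-sided permutation test gave p = 0.0397.

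Mitf fell by 0.48 on the log2 scale in ascending BAPN relative to descending BAPN (SE 0.0783, edgeR adjusted p = 2.79e-05), with no overlap. Under water its difference was -0.17 (SE 0.0789, edgeR adjusted p = 0.107), with overlapping libraries. For all 6 genes the regions did not overlap under BAPN, where 21.4% of all genes did so, and for 4 genes under water, where 20.1% did. In each such pair the exact permutation p was 0.00794, the smallest that 5 against 5 libraries can give. Dct, Tyrp1, Tyr and Mlana could pass the filter through their ascending libraries alone. For these genes the lack of overlap and its p are therefore a description, as their calls are.

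With the pseudogene set as a term in the fit, all 6 genes were still called under BAPN, with Pmel at 2.41, Mlana at 2.68 and Mitf at -0.48 on the log2 scale (edgeR adjusted p = 0.00023, 0.019 and 0.0033). Under BAPN each set held only ascending or only descending libraries, so this term was estimated from the water libraries alone. The fit therefore cannot tell set and region apart under BAPN. Under water the comparison could be made within each set. Dct differed by 7.65 in the set with higher pseudogene levels and by 6.66 in the other, both called. Pmel differed by 2.4 and 1.31, and Mlana by 2.56 and 1.90, and in the set with lower levels neither was called (edgeR adjusted p = 0.051 and 0.18).

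Dct and some other genes were well counted in the ascending aorta and all but missing from the descending one. The ascending libraries held 11112 tested genes at 5 CPM or more on average, and 7 of these had at most 4 counts over the 10 descending libraries. That limit is the count Dct itself had, so its place among these genes follows from the limit and is a description. Dct was among these with 9.65 CPM, behind the muscle genes Csrp3 and Ckmt2, and the others were the muscle genes Trim63 and Xirp2, the desmosome gene Dsg2, and Clec3a. From 1 CPM upwards, 39 of 13875 genes met that limit, Tyrp1 among them.

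Other pigment genes were read from a list of 10, of which 5 passed the filter. In ascending against descending BAPN, Mlph, Slc24a5 and Trpm1 were called higher and Rab38 lower, and the median log2 difference of the 5 was 0.72 against -0.0088 for all genes tested. Under water Mlph and Trpm1 were called higher and Rab38 lower, with a median of 0.63 against -0.0093. Of all genes tested, 29.8% were called under BAPN and 27.3% under water. Trpm1 reached the limit of the count filter in no descending library and Slc24a5 in 4 of 10, so both passed through their ascending libraries, and the calls and medians of this list are a description. Trpm1, a cation channel of melanocytes and retinal bipolar cells, averaged 1.06 ± 0.522 CPM in ascending and 0.132 ± 0.0604 CPM in descending BAPN libraries (SD, n = 5). Mlph, which links melanosomes to their myosin motor, averaged 6.66 ± 0.703 CPM in ascending and 4.02 ± 0.586 CPM in descending BAPN libraries (log2 difference 0.72, SE 0.163, edgeR adjusted p = 0.00115). Rab38, which sorts melanosome enzymes and also acts in other cells, ran the other way with 0.632 ± 0.183 CPM in ascending and 1.39 ± 0.222 CPM in descending BAPN libraries (edgeR adjusted p = 0.00426). Under water its log2 difference was -1.04, and within the pseudogene sets, with fewer libraries, it was -0.97 and -1.06 and not called (edgeR adjusted p = 0.14 and 0.11). Slc24a5, a melanosomal ion exchanger, differed by 1.25 under BAPN (edgeR adjusted p = 0.0155), a call that was lost with the set as a term (1.36, edgeR adjusted p = 0.11).

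The untested pigment genes were too low for the filter and are named here with their counts, a choice made after their values were seen. Slc45a2, a melanosomal transporter, had 43 counts in ascending and 0 in descending BAPN libraries, and 34 in ascending and 0 in descending water libraries. Tspan10 had 8 against 1 under BAPN and 20 against 0 under water, and Oca2 had 8 against 0 and 7 against 1. Gpr143 and Mc1r, the melanocortin receptor that switches pigment type, had at most 4 counts in any group.

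Regulators of the neural crest and of melanoblasts formed a list of 12, of which 10 passed the filter. In both regional comparisons Sox10, Tfap2a, Ednrb, Erbb3 and Lef1 were called higher in the ascending aorta and Snai2 lower, with a median log2 difference of 0.70 under BAPN and 0.55 under water. The share of all genes called was 29.8% under BAPN and 27.3% under water. Tfap2a, Lef1 and Foxd3 reached the filter's limit in 0, 3 and 4 of 10 descending libraries and passed through their ascending ones, so these counts and medians are a description. Lef1 under water was not called within the set of higher pseudogene levels (1.23, edgeR adjusted p = 0.096). Sox10, which acts upstream of Mitf in melanocytes and also marks Schwann cells, averaged 2.58 ± 0.401 CPM in ascending and 1.16 ± 0.452 CPM in descending BAPN libraries (log2 difference 1.17, SE 0.228, edgeR adjusted p = 0.000241). Tfap2a had 148 counts in ascending and 9 in descending BAPN libraries, and 179 in ascending and 0 in descending water libraries, at least 52.5-fold higher. Ednrb, the endothelin receptor that melanoblasts need, averaged 19.1 ± 2.81 CPM in ascending and 12.1 ± 1.55 CPM in descending BAPN libraries (log2 difference 0.67, SE 0.147, edgeR adjusted p = 0.000912). With the pseudogene set as a term this difference was 0.23 and not called (edgeR adjusted p = 0.46). Kit, the receptor of melanoblasts and mast cells, averaged 2.29 ± 0.283 CPM in ascending and 2.79 ± 0.512 CPM in descending BAPN libraries and was not called (edgeR adjusted p = 0.35). Pax3, a regulator of Mitf, was too low for the filter, with 21 against 0 counts under BAPN and 10 against 0 under water.

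Ligands of melanocyte receptors moved in both directions between regions. Of 6 on the list, 5 passed the filter, and in both comparisons Hgf, Kitl and Fgf2 were called higher in the ascending aorta and Edn3 and Edn1 lower. Among all genes the shares called were 29.8% under BAPN and 27.3% under water. Edn3, the endothelin that acts on Ednrb in melanoblasts, averaged 0.301 ± 0.154 CPM in ascending and 2.27 ± 0.539 CPM in descending BAPN libraries. It reached the filter's limit in 2 of 10 ascending libraries and passed through its descending ones, so its call is a description. Hgf averaged 4.64 ± 0.623 CPM in ascending and 1.34 ± 0.451 CPM in descending BAPN libraries (edgeR adjusted p = 1.08e-07). Kitl, the ligand of Kit, averaged 45.0 ± 2.99 CPM in ascending and 34.8 ± 3.71 CPM in descending BAPN libraries (log2 difference 0.37, edgeR adjusted p = 0.000871). With the set as a term the difference of Kitl was 0.15 (edgeR adjusted p = 0.36).

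Genes that many cells use to build and move lysosome-related organelles did not share the regional pattern of the melanin enzymes. Between the regions 29.8% of all genes were called under BAPN, 15.6% as higher and 14.2% as lower. Under water 27.3% were called, 15.2% as higher and 12.1% as lower. Of the 19 organelle genes tested, none was called higher and 6 lower in ascending against descending BAPN, while under water Hps1 and Atp7a were called higher and 5 lower. Of these, Hps1 was not called within either pseudogene set (0.32 and 0.22, edgeR adjusted p = 0.081 and 0.22). Mreg was not called within the set of higher levels (-0.40, edgeR adjusted p = 0.23), and Rab32 and Rab1a were not called within the other (-0.40 and -0.12, edgeR adjusted p = 0.16 and 0.28). With the set as a term under BAPN, Ap3d1 lost its call (-0.11, edgeR adjusted p = 0.17). Rab32, which sorts melanosome enzymes together with Rab38, averaged 13.8 ± 1.39 CPM in ascending and 19.7 ± 0.843 CPM in descending BAPN libraries (log2 difference -0.52, SE 0.109, edgeR adjusted p = 0.000541). The relatives of Mitf, Tfeb, Tfe3 and Tfec, were not called between regions under BAPN (edgeR adjusted p = 0.313, 0.21 and 0.441) or under water (edgeR adjusted p = 0.984, 0.767 and 0.0543).

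**Figure D2:**
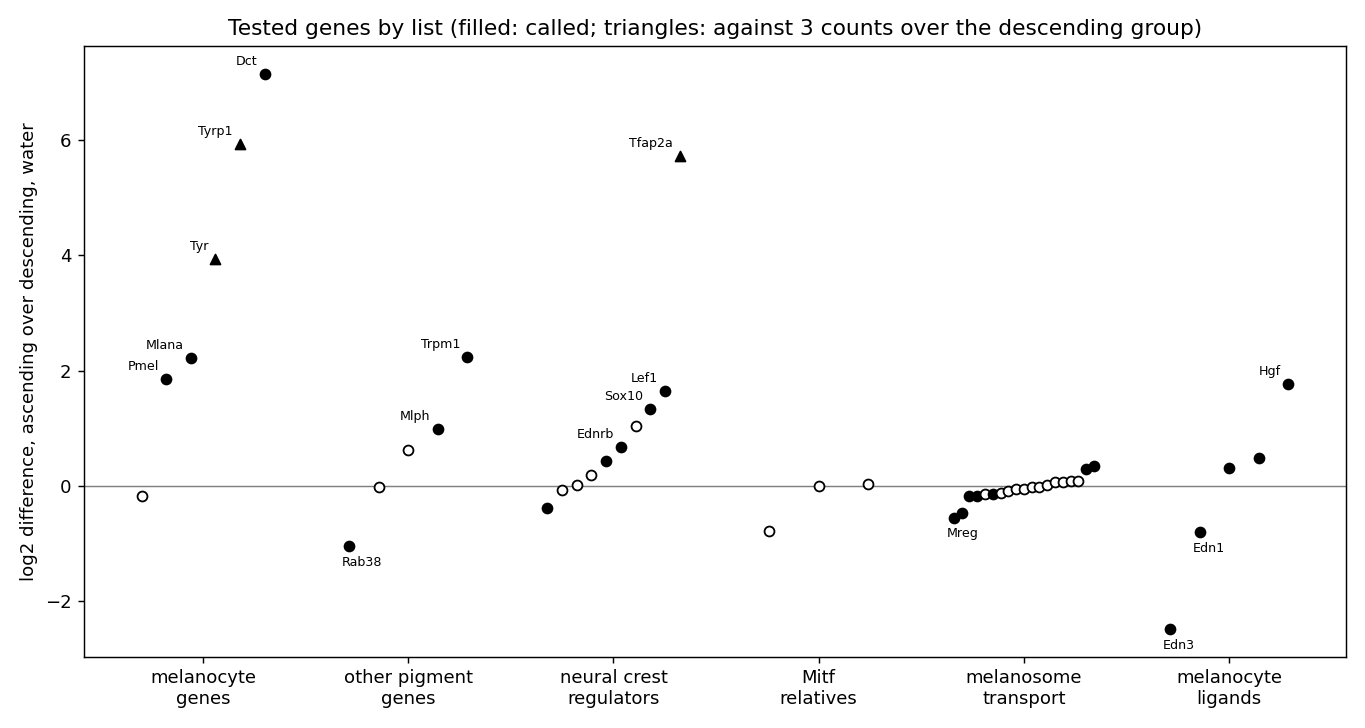
Log2 difference of ascending over descending aorta under water for each tested gene of 6 lists, filled where called, with labels for called genes more than 0.5 from 0; triangles are drawn against 3 counts over the descending group, which had 0 counts of Tyrp1 and Tfap2a and 1 count of Tyr. Dct at 7.15 and Tyrp1 and Tfap2a as triangles stand above the other genes, and the melanosome transport genes lie near 0.

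Markers of other cell types also differed between the regions, and their part in the regional differences of the melanocyte genes was not tested. Several of these markers, among them Myl2, Myl7, Wt1, Krt14 and Tubb3, reached the filter's limit in no descending library, so the counts of calls are a description. Of all genes tested, 29.8% were called under BAPN, 15.6% as higher, and 27.3% under water, 15.2% as higher. All 12 cardiomyocyte markers, led by Myh6 and Tnnt2, were called higher in the ascending aorta in both comparisons, with summed levels of 821 to 1579 CPM in ascending BAPN, 521 to 1245 CPM in ascending water, 80.4 to 91.5 CPM in descending BAPN and 78.8 to 91.7 CPM in descending water. All 7 mesothelial markers, led by Upk1b and Krt19, were likewise called, with 243 to 317, 238 to 420, 1.00 to 13.5 and 1.60 to 13.5 CPM in the same order of groups. Of 10 cartilage and valve markers, 9 were tested, Comp and Sox9 with the smallest p, and 8 were called higher under BAPN and 9 under water. Their sums were 169 to 264 CPM in ascending BAPN and 198 to 287 CPM in ascending water, against 67.5 to 80.1 CPM in descending BAPN and 73.7 to 84.7 CPM in descending water.

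Beside the lists that follow, 15.6% of all genes were called higher under BAPN and 15.2% under water, and 14.2% and 12.1% lower. Schwann cell markers, 14 of 15 tested, gave 7 calls under BAPN and 8 under water, all higher. Their sums were 432 to 451 CPM in ascending BAPN and 443 to 465 CPM in ascending water. In the descending aorta they were 401 to 428 CPM under BAPN and 422 to 445 CPM under water. Most of each sum was Pmp22, with a mean of 324 CPM in ascending and 322 CPM in descending BAPN libraries. The sums therefore say little of the other markers. Mbp averaged 9.98 CPM in ascending and 3.76 CPM in descending BAPN libraries, and Ngfr 3.02 and 0.447 CPM. All 3 tested neuron markers of 8 were called higher, but Uchl1 under water not within the set of higher levels (0.18, edgeR adjusted p = 0.067). Of 10 macrophage markers none was called higher and Cd163 was called lower, though not within the set of higher levels under water (-0.31, edgeR adjusted p = 0.16). Mast cell markers, 6 of 8 tested, gave 1 call under BAPN and 3 under water, all higher, with Hdc in both. With the set as a term Hdc under BAPN was not called (1.15, edgeR adjusted p = 0.068). Mcpt4 under water was not called within the set of higher levels (0.97, edgeR adjusted p = 0.094) or without any 1 of 5 water libraries, ascending 4 or 5 or descending 3, 4 or 5 (0.67 to 0.78, edgeR adjusted p = 0.055 to 0.085). Their sums were 9.14 to 23.2 CPM in ascending BAPN, 14.9 to 25.6 CPM in ascending water, 11.1 to 14.6 CPM in descending BAPN and 10.6 to 17.3 CPM in descending water. Rpe65, which defines the retinal pigment epithelium, another tissue that makes melanin, had 0 counts in all 20 libraries, and Lrat was the 1 of 2 tested markers of that tissue called higher in both comparisons. Of 8 keratinocyte markers 4 were tested, with Krt14 called higher under BAPN, and Krt14 and Trp63 under water. Trp63 was not called within either pseudogene set (0.81 and 1.17, edgeR adjusted p = 0.2 and 0.093). Dsg3, a desmosomal gene of keratinocytes, had 0 counts in all libraries, and Krt5, their keratin, had 3 counts in all. Krt14 nevertheless had 303 counts in ascending and 0 in descending BAPN libraries.

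In the ascending aorta, all 6 genes had a higher fitted level under BAPN than under water, but none was called. By adjusted p, 6.34% of all genes were called in this comparison, 3.44% as higher and 2.91% as lower. Unadjusted p-values were under 0.05 for 3 of the 6 genes, Dct, Tyrp1 and Tyr. The share of all genes with an unadjusted p under 0.05 is not given here, so that count has no like share beside it. For none of the 6 did the groups part without overlap, against 7.51% of all genes, 4.2% with BAPN higher. Dct averaged 11.99 ± 3.45 CPM under BAPN and 7.30 ± 2.48 CPM under water (SD, n = 5 each), a log2 difference of 0.71 with a 95% interval of 0.26 to 1.17 (SE 0.214, edgeR adjusted p = 0.051). Tyrp1 averaged 4.42 ± 2.39 CPM under BAPN and 2.01 ± 0.789 CPM under water, a log2 difference of 1.13 with an interval of 0.41 to 1.84 (SE 0.337, edgeR adjusted p = 0.0575). For Tyr the difference was 1.25 with an interval of 0.35 to 2.15 (SE 0.424, edgeR adjusted p = 0.0812).

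These 3 genes thus lay at the edge of the threshold, with intervals that left out 0 before adjustment. Exact two-sided permutation tests of the mean CPM, not adjusted, gave p = 0.0397 for Dct, 0.0317 for Tyrp1 and 0.0873 for Tyr. DESeq2 called 1 of the 6 genes, Tyrp1, and limma-voom called 2, Dct and Tyrp1. Within the set of higher pseudogene levels, which holds 5 BAPN and 2 water libraries, the log2 difference of Dct was 0.39 (SE 0.241, edgeR adjusted p = 0.5), that of Tyrp1 0.88 (SE 0.435, edgeR adjusted p = 0.37) and that of Tyr 1.19 (SE 0.686, edgeR adjusted p = 0.46). With the set as a term in the fit they were 0.41, 0.89 and 1.27, none called (edgeR adjusted p = 0.49, 0.36 and 0.28).

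Pmel differed by 0.41 on the log2 scale with an interval of -0.14 to 0.96 (edgeR adjusted p = 0.405), and Mlana by 0.36 with an interval of -0.52 to 1.24 (edgeR adjusted p = 0.695). Mitf differed by 0.06 with an interval of -0.11 to 0.22 (edgeR adjusted p = 0.762). The interval of Mitf was narrow, with means of 19.8 ± 2.37 CPM under BAPN and 19.02 ± 1.13 CPM under water (SD, n = 5 each). No pigment-specific gene outside the 6, no neural crest regulator and no ligand on the lists was called in this comparison, for 5, 10 and 5 genes tested. Here 6.34% of all genes were called, 3.44% as higher. Cardiomyocyte markers summed to 821 to 1579 CPM under BAPN and 521 to 1245 CPM under water, and 2 of 12, Actn2 and Tnnt2, were called higher. Of the macrophage markers Lyve1 was called higher, and the other marker lists gave no call. With the pseudogene set as a term none of these 3 was called, with Actn2 at 0.49, Tnnt2 at 0.38 and Lyve1 at 0.14 on the log2 scale (edgeR adjusted p = 0.15, 0.23 and 0.41), and none was called within the set (edgeR adjusted p = 0.28, 0.19 and 0.5). DESeq2 did not call Tnnt2 (adjusted p = 0.15), and each of these calls was lost on leaving out certain single libraries, ascending water 3 among them. The part of these cells in the differences of the melanocyte genes was not tested.

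In the descending aorta Mitf rose under BAPN, averaging 27.5 ± 2.13 CPM under BAPN and 21.5 ± 1.92 CPM under water (SD, n = 5 each). The log2 difference was 0.36, a 1.28-fold change (SE 0.0778, edgeR adjusted p = 0.00334). The libraries of the groups did not overlap, and an exact two-sided permutation test gave p = 0.00794. Mitf was the 1 of the 6 genes called, where 10.7% of all genes were called, 6.18% as higher and 4.54% as lower. It was also the 1 whose groups did not overlap, as for 7.38% of all genes, 4.1% with BAPN higher. Within the set of lower pseudogene levels, with 5 BAPN and 2 water libraries, its difference was 0.42 (SE 0.103, edgeR adjusted p = 0.038). Pmel differed by -0.02 (SE 0.364, edgeR adjusted p = 0.987) and Mlana by -0.31 (SE 0.739, edgeR adjusted p = 0.857). For Dct, Tyrp1 and Tyr both groups were at or near 0 and no fold is given.

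Macrophage markers, which belong to cells that also use Mitf, summed to 315 to 408 CPM in descending BAPN and 323 to 374 CPM in descending water, and 0 of 10 were called. Mast cell markers summed to 11.1 to 14.6 CPM in descending BAPN and 10.6 to 17.3 CPM in descending water, with 0 of 6 called. In this comparison 10.7% of all genes were called. The part of macrophages and mast cells in the rise of Mitf was not tested. Scn7a of the Schwann cell list was called higher, and of the cartilage and valve list Acan was called higher and Comp lower. None of the 3 was called within the set of lower pseudogene levels (0.30, 0.21 and -0.59, edgeR adjusted p = 0.091, 0.35 and 0.053). Acan was also lost with the set as a term (0.22, edgeR adjusted p = 0.14), Scn7a with upper-quartile scaling (0.20, edgeR adjusted p = 0.074) and Comp with limma-voom (-0.49, adjusted p = 0.13). Each of these calls was also lost on leaving out certain single libraries. Gpnmb, a melanosome protein that macrophages also make, rose in descending BAPN and averaged 12.1 ± 2.04 CPM under BAPN and 7.66 ± 1.53 CPM under water (log2 difference 0.66, SE 0.149, edgeR adjusted p = 0.00475). Within the set of lower pseudogene levels it differed by 0.56 and was not called (edgeR adjusted p = 0.12). In the ascending aorta Gpnmb averaged 10.52 ± 2.19 CPM under BAPN and 7.57 ± 1.22 CPM under water and was not called (edgeR adjusted p = 0.0553).

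Of the 19 organelle genes used by many cells, Kif13a and Lyst were called higher under BAPN in both regions. Among all genes tested, 3.44% were called higher under BAPN in the ascending aorta and 6.18% in the descending aorta. Kif13a, a kinesin that carries melanosome cargo, averaged 180 ± 3.19 CPM in ascending BAPN and 147.5 ± 2.93 CPM in ascending water (log2 difference 0.29, edgeR adjusted p = 1.4e-05). In the descending aorta it averaged 196 ± 8.28 CPM under BAPN and 153 ± 6.79 CPM under water (log2 difference 0.36, edgeR adjusted p = 5.83e-07). Lyst, mutated in beige mice, averaged 77.8 ± 4.42 CPM in ascending BAPN and 58.3 ± 2.27 CPM in ascending water (log2 difference 0.41, edgeR adjusted p = 8.36e-05). It averaged 90.8 ± 5.82 CPM in descending BAPN and 65.8 ± 7.02 CPM in descending water (log2 difference 0.46, edgeR adjusted p = 1.27e-05). Both genes were plentiful in the descending aorta, where Dct and Tyrp1 were at or near 0.

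Whether BAPN acted unequally in ascending and descending aorta was tested as an interaction, which was called for 0 of the 6 genes, and for 0 of the 15543 genes tested. DESeq2 called 14 genes and limma-voom 0, none of them among the 6. For Mitf the BAPN effect was smaller in the ascending than in the descending aorta by 0.30 on the log2 scale, with a difference of -0.30 (SE 0.111, edgeR adjusted p = 0.566), and it alone of the 6 had an unadjusted edgeR p under 0.05. For Pmel the difference was 0.43 (SE 0.45, edgeR adjusted p = 0.935) and for Mlana 0.67 (SE 0.857, edgeR adjusted p = 0.951). A differing response of Mitf between the regions is therefore not shown.

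**Figure D3:**
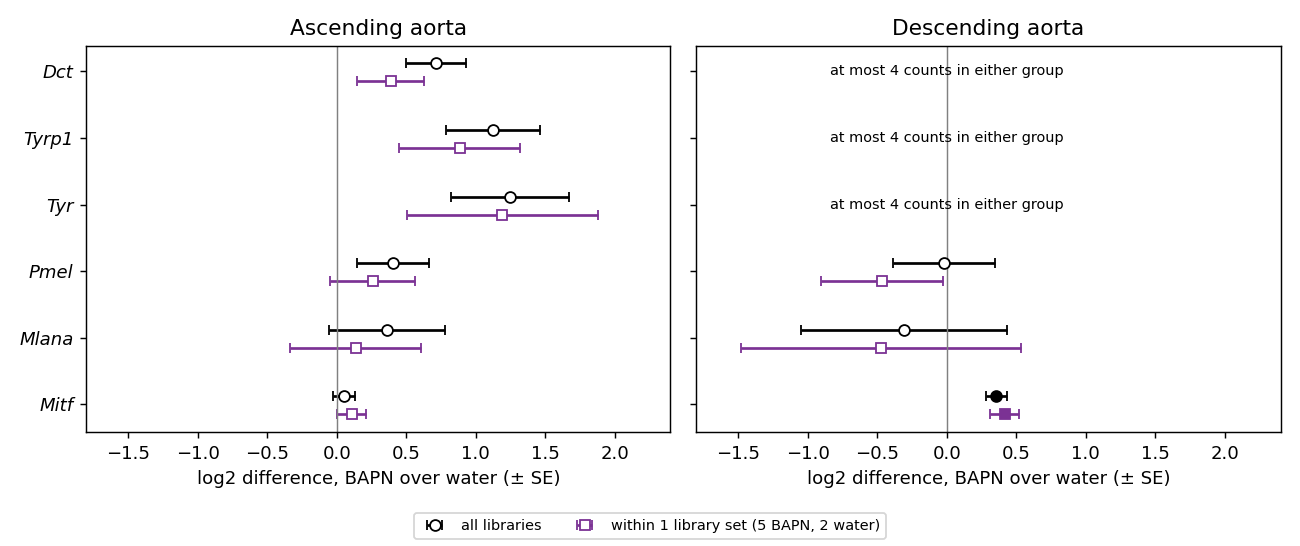
Log2 difference of BAPN over water with its standard error for each gene, in the ascending and the descending aorta, from all libraries (circles) and within the pseudogene set that holds 5 BAPN and 2 water libraries of the region (squares); filled symbols are called. Dct moves from 0.71 to 0.39 between circle and square, and Mitf in the descending aorta is filled in both.

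Libraries of the same group differed in their pigment transcripts, and the genes varied together to different degrees. Correlations were taken of log2(CPM + 0.5) after each group mean was subtracted, over 20 libraries and 15 pairs of genes. Dct, Tyrp1 and Tyr were at or near 0 in the descending libraries, so pairs with them rest mainly on the ascending libraries. Dct and Tyrp1 had Pearson's r = 0.81 (permutation p = 0.0044, Benjamini-Hochberg adjusted 0.033) and Spearman's rho = 0.804 (permutation p = 0.0051, adjusted 0.036). Without the 2 libraries farthest from the median of Dct, ascending water 4 and ascending BAPN 4, r was 0.655. Dct and Pmel had r = 0.641 (permutation p = 0.0085, adjusted 0.042) and rho = 0.683 (permutation p = 0.0073, adjusted 0.036), and r = 0.672 without the same libraries. With log2(CPM + 0.1) this pair no longer passed, with r = 0.505 (permutation p = 0.09, adjusted 0.19) and rho = 0.458 (permutation p = 0.1, adjusted 0.22).

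Mitf went against Pmel, with r = -0.67 (permutation p = 0.0042, adjusted 0.033), rho = -0.665 (permutation p = 0.0028, adjusted 0.036) and r = -0.678 without descending water 4 and ascending water 2. The other 12 pairs did not pass after adjustment. Mitf and Dct had r = -0.373 (permutation p = 0.13, adjusted 0.25) and rho = -0.384 (permutation p = 0.1, adjusted 0.22). Within the pseudogene sets, a split of the correlations chosen after the data were seen, the set of higher levels had r = 0.785 for Dct and Tyrp1, 0.594 for Dct and Pmel and -0.733 for Pmel and Mitf (permutation p = 0.054, 0.13 and 0.05, n = 10). In the other set, which has 3 ascending libraries, r was 0.939, 0.836 and -0.52 (permutation p = 0.17, 0.17 and 0.33, n = 10). Dct and Tyrp1 were at or near 0 in its descending libraries, so the r of this pair rests on the 3 ascending ones. Only these could be rearranged to effect, and 0.17 was the smallest p this pair could reach. The test in this set therefore cannot decide on Dct and Tyrp1.

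Over the 10 ascending libraries alone, a choice made after the data were seen, r with group means subtracted was 0.84 for Dct and Tyrp1 and 0.835 for Dct and Pmel (permutation p = 0.0045 and 0.0061, both adjusted 0.046), and rho was 0.867 for both (permutation p = 0.0034 and 0.0046, both adjusted 0.035). Pmel and Mitf did not pass over these libraries, with r = -0.539 (permutation p = 0.12, adjusted 0.35) and rho = -0.467 (permutation p = 0.2, adjusted 0.44). Dct was set against the summed level of 9 marker lists over these libraries, also chosen after the data were seen, and no relation passed, with adjusted p of 0.71 to 0.77 for r. Mesothelial markers had r = 0.542 (permutation p = 0.15) and rho = 0.527 (permutation p = 0.16), and cardiomyocyte markers r = 0.146 (permutation p = 0.72) and rho = -0.006 (permutation p = 1). For Schwann cell markers, a sum that was mostly Pmp22, r was -0.112 (permutation p = 0.77) and rho -0.224 (permutation p = 0.57). Macrophage markers had r = 0.46 (permutation p = 0.23) and rho = 0.564 (permutation p = 0.13). Neuron markers had r = -0.453 (permutation p = 0.25) and rho = -0.564 (permutation p = 0.12). The neuron sum was mostly Uchl1 and the keratinocyte sum mostly Dsp, so these sums say little of their other markers.

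**Figure D4:**
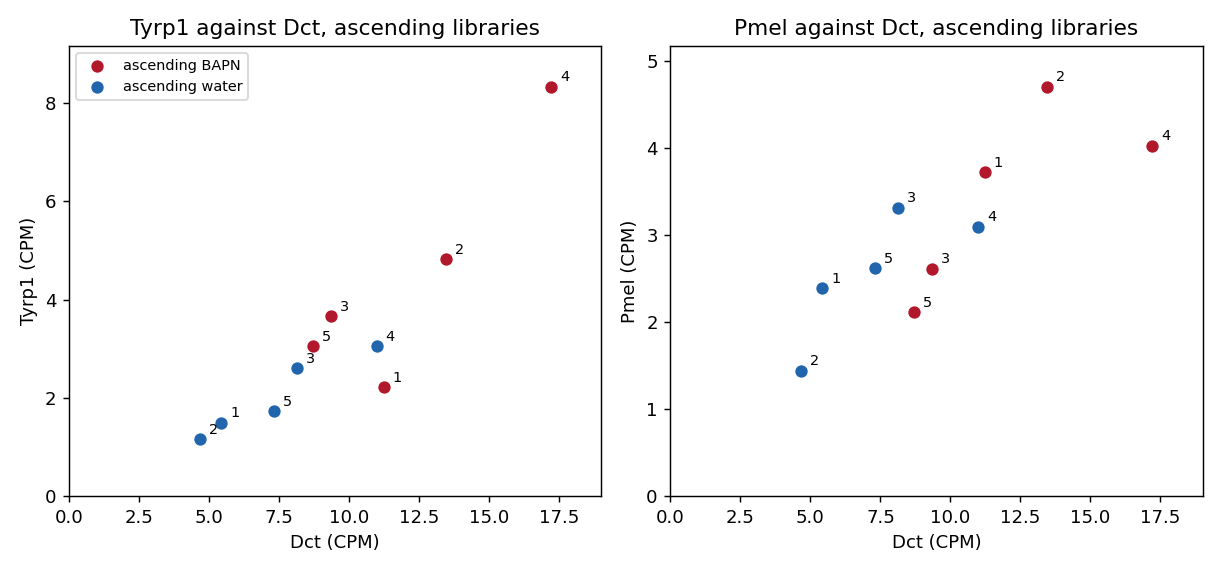
CPM of Tyrp1 and of Pmel against CPM of Dct in the 10 ascending libraries, each point a library with its number, BAPN in red and water in blue. Ascending BAPN 4, at 17.2 CPM of Dct and 8.33 CPM of Tyrp1, lies farthest to the upper right of the Tyrp1 panel.

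Among all 15543 tested genes, those whose centred values were most like each of the 6 over the 20 libraries were ranked by Pearson's r, as a description of these libraries. For Dct they were Eng (r = 0.841), Flt1 (0.818) and Atp11a (0.81), the first pair being genes of endothelial receptors. For Tyrp1 they were Mcoln3 (0.904), an endolysosomal cation channel gene, Eng (0.841) and A2m (0.814). Mcoln3 averaged 0.615 CPM over ascending and 0.00988 CPM over descending libraries, so like Tyrp1 it was nearly absent from the descending aorta. For Tyr they were Gm43050 (0.81), Has2os (0.808) and Sms (0.795), for Pmel Ephb4 (0.769), Alg9 (0.768) and Wdfy2 (0.748), for Mlana Slc47a1 (0.786) and Tmem253 (0.772), and for Mitf Gm17249 (0.77), Spdl1 (0.761) and Wdr31 (0.754). Spearman's rho was lower for the genes named with Tyr, at 0.321, 0.48 and 0.547. For those named with Dct it was 0.803, 0.798 and 0.839. No member of the 6 was among the 3 genes most like another, and genes compared within the same libraries share their depth and composition.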

How the data were processed

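Raw counts of reads per gene for 20 libraries were deposited by the authors, in a table of the series and in a file per library, which were equal for all 20. The submitters' processing notes name mm10 as the genome and list HTSeq 0.6.1, STAR 2.5 and fastp as tools; settings, strand and annotation are not given in the sources used here. Symbols were matched to GENCODE M21 on GRCm38 (54409 of 54532 identifiers). Libraries held 15744725 to 23292294 counts. Groups follow the sample labels. filterByExpr chose the genes to test (minimum count 10, minimum total 15). Library sizes were scaled by TMM, and edgeR 4.0.16 under R 4.3.3 fitted 1 mean per group, leaving 16 residual degrees of freedom, after the procedure was tested on simulated data. Quasi-likelihood p-values were adjusted by Benjamini-Hochberg over 15543 genes in each comparison. CPM use the same scaling. Single values were compared by exact two-sided permutation tests, 24 in all, not adjusted, of which 14 had p under 0.05. Correlations used 100000 permutations of libraries within groups. Where a group held at most 3 counts, ratios of counts with 95% intervals, or bounds against 3 counts over the group, replace fitted folds.

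Alternatives were other scaling, other filters on low counts, DESeq2 1.42.0, limma-voom (limma 3.58.1), a fit to the compared groups alone, a block for replicate number, a term for the pseudogene sets and fits within them, leaving out each library, and other pseudocounts. The sets were split at the largest gap (1.56) of the first principal component of 33 pseudogenes, the next gap being 0.407. The 6 genes, the lists and the alternatives were chosen with earlier results of these data known. The text names the 6 genes, of each pigment list up to 4 and of each other marker list up to 2 called genes with the smallest p, list members at 0 counts in all libraries, and the 3 genes most like each of the 6, of which 1 is not reported here. The correlations over ascending libraries, within pseudogene sets and with marker lists were added after seeing the data. Kit, Pax3, Snai2, Atp7a, Pmp22, the relatives of Mitf, the untested pigment genes, Krt5 and genes nearly absent from the descending aorta were named after their values were seen. Isoforms of Mitf and Asip, which is on the ligand list, were not analysed here. Figures were drawn with matplotlib 3.10.9.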

Additional observations from a re-analysis of the deposited data

Results flagged for a closer look

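Each of 18 sets of 5 libraries was searched for a library far from the others, by the gap to its nearest neighbour as a share of the group's range, with a limit of 0.71; chance passes this limit in about 1 in 20 groups. Mlana was far above the rest in ascending BAPN 4, at 2.15 CPM with the next library at 0.836 CPM (0.821 of the range). Mitf was far above the rest in ascending BAPN 5, at 23.9 CPM with the next at 19.2 CPM (0.761 of the range). Mitf also stood apart in ascending water 1, at 21.0 CPM with the next at 18.9 CPM (0.726 of the range). Ascending BAPN 4 held the highest level of 4 of the 6 genes in its group, namely Dct, Tyrp1, Tyr and Mlana.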

How the results depend on the processing

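In ascending BAPN against water, 0 of the 6 genes were called, against 2 (Dct and Tyrp1) with no filter on low counts, with limma-voom or with a replicate block, and 1 (Tyrp1) with DESeq2 or with only the compared groups fitted; leaving out each library gave 0 to 2. Dct was called without ascending BAPN 3 or 5, ascending water 4, descending BAPN 2 or 5 or descending water 5, Tyrp1 without ascending BAPN 1 or ascending water 4, and Tyr without ascending BAPN 3. Over the 20 such fits the log2 difference of Dct was 0.55 to 0.90, that of Tyrp1 0.76 to 1.32 and that of Tyr 0.75 to 1.52. In ascending against descending water, 5 were called, against 3 with at least 1 CPM in 5 libraries (fewer genes tested) or within the set of lower pseudogene levels (fewer libraries). Uncalled differences changed sign for Mlana in ascending BAPN against water without ascending BAPN 4 (-0.095; range over such fits -0.095 to 0.51), for Mitf there without ascending BAPN 5 (-0.019; range -0.019 to 0.094), for Mlana in descending BAPN against water without descending water 4 (0.072; range -0.77 to 0.072), and for Pmel there with limma-voom (0.13), a replicate block (0.031) and without descending BAPN 3 or 5 or descending water 1 or 4 (0.036, 0.053, 0.040 and 0.39; range -0.17 to 0.39). The cause was not tested. Mitf in descending BAPN against water was called in all 20 such fits (0.31 to 0.39), and in ascending against descending water in 1, without descending water 4 (-0.22, adjusted p = 0.036). Whether a replicate number marks a shared animal is not known from the labels, so libraries were not paired. In ascending against descending BAPN each number correlated best with its own (0.088 to 0.153, against at most 0.034 with other numbers), a hint from the data. In the other comparisons this did not hold for every number. The replicate block changed no other count of calls. It ties each number across all groups, treatments included, so it does not test a pairing of regions within a treatment. Totals of 15744725 to 23292294 counts limit what can be said of genes under about 1 CPM.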
